A study of Drosophila melanogaster with 24 samples.

Results

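Potassium channels that open with depolarization or with intracellular calcium carry the outward current that ends an action potential and sets how fast a neuron can fire again. In Drosophila the voltage-gated family has the founding members Sh, Shab, Shal and Shaw, and the eag-type family has eag, sei and Elk. Of the calcium-gated channels, slo is also opened by voltage and has a large conductance. SK has a small conductance and takes part in the afterhyperpolarization. In clock neurons, daily changes in potassium current are a known part of the rhythm in firing, and slo is known for its part in behavioural rhythms. Here 9 genes (Sh, Shab, Shal, Shaw, slo, SK, eag, sei and Elk) were taken by symbol from the probe-to-gene table of the array, which gave 20 probe sets of 18769 without control probe sets. Of these, 16 probe sets of 9 genes passed the filter, with 2 or more arrays at a log2 value of 5 or higher, and entered the tests together with all other such probe sets, 8318 in total.

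The arrays measured RNA of GFP-marked neurons collected by hand from dissociated brains of adult flies kept in 12 h light and 12 h dark, with about 50 brains per sample. General neurons (marked with an ELAV driver) were taken at ZT0 and ZT12 (3 arrays each), and the large PDF neurons, clock neurons that release the peptide PDF, at the same times (3 arrays each) and additionally at ZT6 and ZT18 (2 arrays for each time). Small PDF neurons were taken at ZT0 and ZT12 only (2 arrays for each time). These 3 cell kinds came from males and females of yw background, called wild type here. Large PDF neurons of per01 flies, which lack a working period gene, came from males only and were taken at ZT0 and ZT12 (2 arrays each). ZT is zeitgeber time in hours, with lights on at ZT0 by convention, and the drivers themselves are not named in the labels. Each array is a pool of sorted cells, so that fewer cells with a transcript and less of it per cell cannot be told apart.

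Pdf and elav followed the labels, while other markers did so only in part. The 6 PDF and clock markers averaged 3.79 to 4.88 on ELAV arrays, 9.53 to 10.86 on large and 11.1 to 12.1 on small PDF arrays. Of these, Pdfr lay at 2.36 to 2.82 in large PDF and at 2.36 to 2.74 in ELAV neurons. The lowest Pdf value on a wild-type PDF neuron array was 15.50 and the highest on an ELAV array 5.34, and elav lay at 11.27 or more on every array. The 9 transmitter-type markers averaged 8.62 to 10.04 on ELAV arrays, 3.96 to 5.01 on large and 4.55 to 5.98 on small PDF arrays. The 4 pan-neuronal markers that could be measured averaged 10.45 to 11.26 on ELAV arrays, 9.75 to 10.67 on large and 9.50 to 10.48 on small PDF arrays. Of 6 measured glial markers 3 passed the filter. The glial list averaged 3.39 to 3.99 on ELAV, 3.40 to 4.75 on large and 3.70 to 4.85 on small PDF arrays. The glial factor gene repo lay at most at 3.45 except on large PDF ZT12 replicate 1 (5.14). Another glial marker, nrv2, lay at 5.89 or more on every small PDF array, with a median of 7.01. Its medians were 5.78 in large PDF and 5.54 in ELAV neurons. Single PDF neuron arrays carried markers of other cells, with Gad1 at 9.51 on large PDF ZT18 replicate 2 and at 7.11 on small PDF ZT0 replicate 1, and Gs2 at 9.53 on large PDF ZT0 replicate 2. Vmat was at 9.70 on small PDF ZT12 replicate 1. ChAT was at 7.68 on large PDF ZT0 replicate 1 and at 7.93 on small PDF ZT0 replicate 2, where Gs2 was at 6.95. The monoamine marker Tdc2 was not confined to single arrays. It ran from 7.88 to 12.34 in large PDF, 6.18 to 10.80 in small PDF and 9.52 to 11.61 in ELAV neurons. SerT ran from 4.36 to 9.12 in large PDF, 3.98 to 7.57 in small PDF and 4.18 to 13.09 in ELAV neurons. Pxn, the 1 haemocyte marker of 5 that passed the filter, lay at 10.85 to 11.45 in large PDF neurons. It lay at 9.08 to 10.36 in ELAV and 5.89 to 9.94 in small PDF neurons. Fat-body apolpp and Yp1 reached 9.05 and 8.99 in large PDF, 9.05 and 6.80 in small PDF and 6.71 and 8.44 in ELAV neurons. Large PDF ZT0 replicate 2 also had bt, a muscle marker, at 7.58 and Hml, a haemocyte marker, at 6.73. The 4 per01 arrays had their own distribution, with medians of 2.57 to 2.6 over all probe sets against 3.14 to 3.44 on the 20 wild-type arrays. The part of these markers in the results below was not tested, apart from fits without the 3 arrays with Gad1 over 7 or Gs2 over 9, which leave the arrays with the other markers in.

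**Figure D1:**
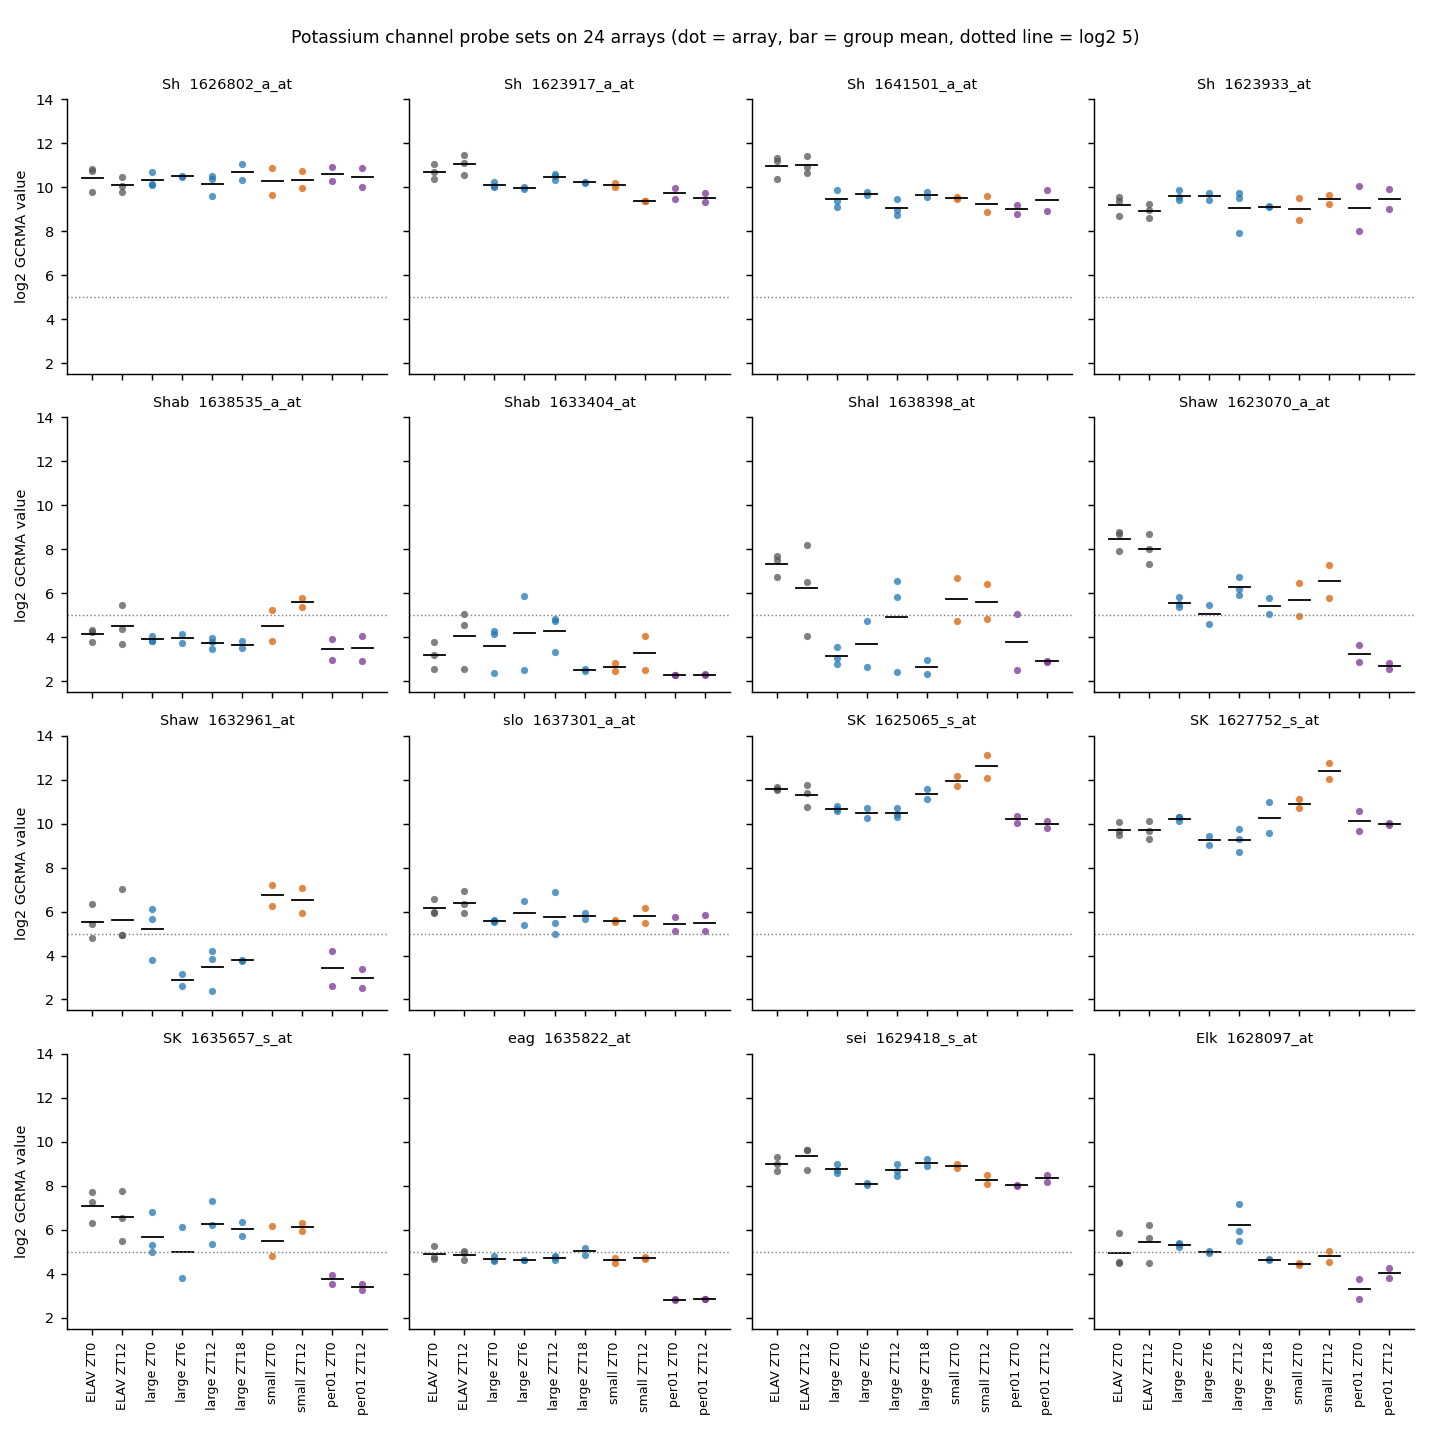
Deposited log2 GCRMA value (y axis) of the 16 tested probe sets on each of the 24 arrays, grouped by cell kind, genotype and time (x axis). Dots are arrays, bars are group means and the dotted line marks log2 5. SK probe sets 1625065_s_at and 1627752_s_at are highest on small PDF arrays, and Shaw probe set 1623070_a_at is highest on ELAV arrays and lies under 5 on all 4 per01 arrays.

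Some probe sets of Sh, Shal, Shaw, SK, Shab and Elk differed between cell kinds, and probe sets of 1 gene did not always go together. Against general neurons, large PDF neurons had 5 of the 16 potassium channel probe sets lower and 0 higher, from Sh (2 probe sets), Shal, Shaw and SK. Over all probe sets, 12.5% were lower and 11.9% higher in the same comparison (24.4% in either direction). The median log2 difference of the 16 was -0.54 and that of all tested probe sets -0.01. Small PDF neurons had 3 lower (2 of Sh and 1 of Shaw) and 2 higher (both of SK), where 14% of all probe sets were lower and 13.6% higher (27.6% in either direction), with medians of -0.57 for the 16 and 0.02 for all. These 2 comparisons share the ELAV arrays. Between the PDF kinds, 4 were higher in small neurons (2 of SK, 1 each of Shab and Shaw) and 1 lower (Elk), where 9.14% of all probe sets were higher and 7.97% lower (17.1% in either direction), with medians of 0.04 and 0.03. All p-values of single probe sets are from limma's moderated test, adjusted by Benjamini and Hochberg over the 8318 probe sets, and called means an adjusted p under 0.05. Differences are on the log2 scale, with standard errors, and weight ZT0 and ZT12 equally.

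**Figure D2:**
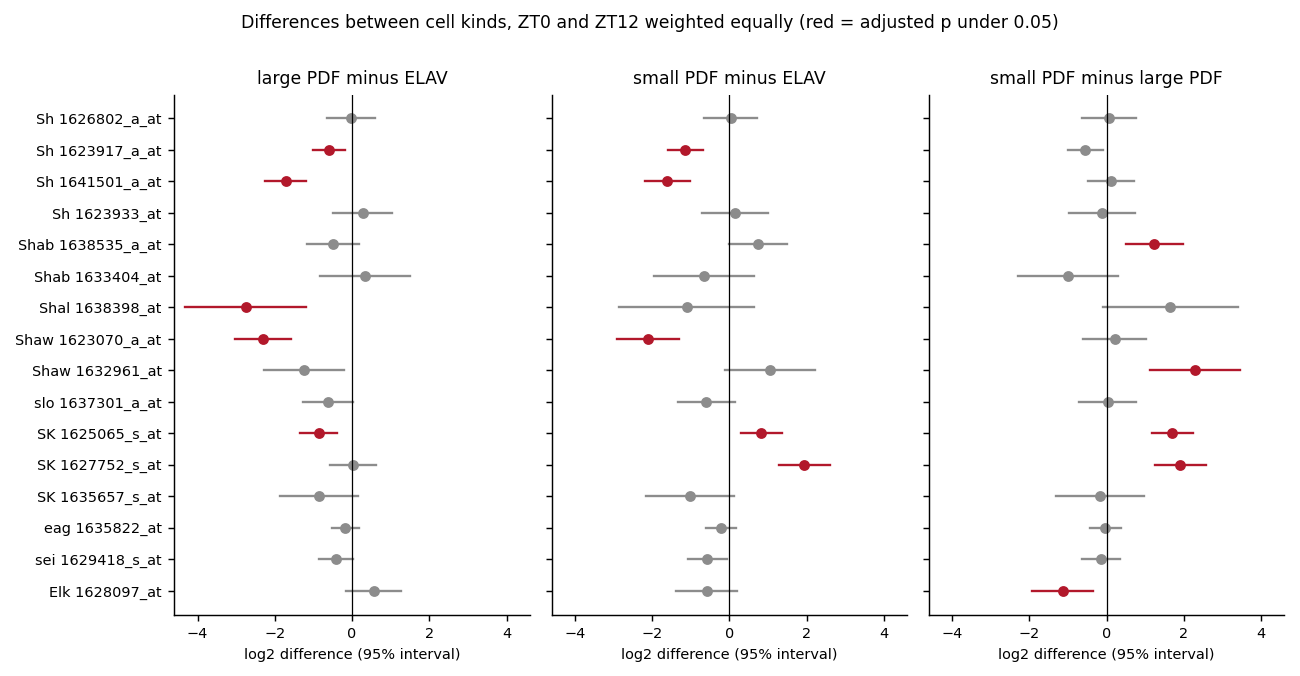
Log2 difference with its 95% interval (x axis) for the 16 probe sets (y axis) in large PDF minus ELAV, small PDF minus ELAV and small minus large PDF neurons. Red marks an adjusted p under 0.05. The calls against ELAV are all to the lower side in large PDF neurons, and SK is to the higher side in small PDF neurons.

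SK, the small-conductance calcium-gated channel gene, was higher in small PDF neurons than in both other kinds on 2 of its 3 tested probe sets. Probe set 1625065_s_at read 11.72 and 12.16 at ZT0 and 12.09 and 13.12 at ZT12 in small PDF neurons. In large PDF neurons it ran from 10.25 through a median of 10.68 to 11.57 (10 arrays), and in ELAV neurons from 10.76 through 11.53 to 11.75 (6 arrays). At ZT0 and ZT12 the small PDF arrays lay above all large PDF arrays, as for 5.21% of all probe sets, and they overlapped the ELAV arrays narrowly. The difference was 1.70 ± 0.25 from large PDF neurons (adjusted p = 0.000163) and 0.83 ± 0.25 from ELAV neurons (adjusted p = 0.0192), and large PDF neurons were lower than ELAV neurons by -0.87 ± 0.22 (adjusted p = 0.00834). At ZT0 and ZT12 the order was small PDF, ELAV and large PDF neurons, each step called, and per01 large PDF neurons stood at 9.81 to 10.35, not called against wild type. The large PDF arrays of ZT18 read 11.11 and 11.57, within the range of the ELAV arrays, which were taken at ZT0 and ZT12 only. The call of small PDF against ELAV was lost without small PDF ZT12 replicate 2 (0.57, adjusted p = 0.127) or without small PDF ZT0 replicate 1, with only the small PDF and ELAV groups in the fit (adjusted p = 0.0726), and without the 3 arrays with Gad1 or Gs2 (0.72, adjusted p = 0.109).

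The second SK probe set, 1627752_s_at, read 10.70 and 11.11 at ZT0 and 12.01 and 12.76 at ZT12 in small PDF neurons. It ran from 8.69 through 9.65 to 10.99 in large PDF neurons and from 9.31 through 9.66 to 10.11 in ELAV neurons. Every small PDF array lay above every ELAV array and above every large PDF array of ZT0 and ZT12, which held for 9.77% and 5.21% of all probe sets. The difference was 1.91 ± 0.31 from large PDF neurons (adjusted p = 0.000387) and 1.94 ± 0.31 from ELAV neurons (adjusted p = 0.000146), and both calls were kept in each fit without 1 array. Large PDF and ELAV neurons differed by 0.03 on it (95% interval -0.56 to 0.62). The third SK probe set, 1635657_s_at, was at 4.80 to 6.32 in small PDF, 3.82 to 7.28 in large PDF and 5.49 to 7.74 in ELAV neurons, and it was not called in any of the 3 comparisons. Its difference in small PDF neurons went to the lower side, at -1.03 from ELAV (adjusted p = 0.175) and -0.18 from large PDF neurons (adjusted p = 0.864). The fourth, 1624040_at, did not pass the filter, with 5.61 and 4.47 on large PDF ZT0 replicates 1 and 3 and at most 2.30 elsewhere. The suffix s marks a probe set whose probes can match several transcripts, and the exons that each probe set reads were not used here.

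Shaw was lower in both PDF kinds on its brighter probe set. Probe set 1623070_a_at ran from 7.34 through 8.34 to 8.81 in ELAV neurons and from 4.61 through 5.66 to 6.75 in large PDF neurons, and it read 4.96, 5.81, 6.47 and 7.30 in small PDF neurons. No PDF neuron array reached the lowest ELAV array, and small PDF ZT12 replicate 1 (7.30), the array with Vmat at 9.70, lay just under it. Without that array the difference of small PDF neurons from ELAV was -2.48. Over all 10 fits without 1 array it ran from -2.48 to -1.73. The part of Vmat in this was not tested. The difference from ELAV was -2.31 ± 0.34 in large PDF neurons (adjusted p = 7.36e-05) and -2.10 ± 0.38 in small PDF neurons (adjusted p = 0.000467), and between the PDF kinds it was 0.20 ± 0.38 (95% interval -0.60 to 1.01, not called). Arrays wholly below ELAV were seen for 5.99% of all probe sets in large and 9.5% in small PDF neurons. The other Shaw probe set, 1632961_at, separated the PDF kinds. It read 6.26 and 7.20 at ZT0 and 5.94 and 7.08 at ZT12 in small PDF neurons, against 2.40 to 6.13 in large PDF and 4.79 to 7.03 in ELAV neurons. It was higher in small than in large PDF neurons by 2.28 ± 0.55 (adjusted p = 0.00791), and was not called against ELAV in large (-1.24, adjusted p = 0.0773) or small (1.05, adjusted p = 0.175) PDF neurons. With values under log2 5 raised to 5 the difference between the PDF kinds was 1.32 and still called.

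Sh, which forms a fast inactivating A-type channel, split by probe set. Probe set 1641501_a_at ran from 10.39 through 11.06 to 11.40 in ELAV neurons and from 8.75 through 9.50 to 9.89 in large PDF neurons, and read 8.89, 9.45, 9.57 and 9.59 in small PDF neurons. No PDF array overlapped the ELAV arrays, as for 5.99% (large) and 9.5% (small) of all probe sets on that side at ZT0 and ZT12. The difference was -1.72 ± 0.25 in large (adjusted p = 5.5e-05) and -1.61 ± 0.28 in small PDF neurons (adjusted p = 0.000284), both kept in each fit without 1 array. Probe set 1623917_a_at was lower as well, by -0.59 ± 0.20 in large (adjusted p = 0.0356) and -1.14 ± 0.22 in small PDF neurons (adjusted p = 0.000742). The call in large PDF neurons was lost in 8 of the 12 fits that left out an array, the highest adjusted p being 0.0971 (without ELAV ZT0 replicate 2), also with only the ELAV and large PDF groups of ZT0 and ZT12 in the fit.

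The other bright Sh probe sets gave no call. Probe set 1626802_a_at ran from 9.76 to 10.81 in ELAV, 9.60 to 11.04 in large PDF and 9.64 to 10.88 in small PDF neurons, and its difference from ELAV was -0.03 in large (95% interval -0.65 to 0.59) and 0.03 in small PDF neurons (95% interval -0.66 to 0.72). Probe set 1623933_at differed by 0.27 (adjusted p = 0.628) and 0.15 (adjusted p = 0.821). The remaining 3 Sh probe sets did not pass the filter, with 1 value each over 5 for 1639174_at (5.37, ELAV ZT0 replicate 1) and 1640193_at (5.25, large PDF ZT18 replicate 2) and none for 1632879_at.

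Whether probe sets of 1 gene truly moved apart was tested on their difference within each array, with an exact two-sided permutation test over arrays and adjustment over 33 such tests on Sh, Shab, Shaw and SK. These tests were added after the values were seen. Relative to Sh 1626802_a_at, Sh 1641501_a_at was 1.69 lower in large PDF than in ELAV neurons (exact p = 0.00216, adjusted p = 0.0357) and 1.64 lower in small PDF than in ELAV neurons (exact p = 0.00952, adjusted p = 0.0449). Those are the smallest p-values that 6 against 6 and 4 against 6 arrays allow. For Shaw, 1623070_a_at moved by -3.15 relative to 1632961_at between ELAV and small PDF neurons (adjusted p = 0.0449). For SK, 1625065_s_at moved by -1.11 relative to 1627752_s_at between the same kinds (adjusted p = 0.0449), both being higher in small PDF neurons. Of the 33 tests 7 passed, and they concern probe sets of a gene, not named transcripts. All 7 reuse the ELAV arrays, and every Sh test that passed involves 1641501_a_at, so that they are not independent of each other. With an array left out, where the smallest possible p is higher, each of the 7 kept its sign but missed the threshold in 10 of its 10 or 12 repeats.

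Shal, the other A-type channel gene, which in PDF neurons is known for a part in sleep onset, was lower in large PDF neurons. Probe set 1638398_at read 6.73, 7.72 and 7.52 at ZT0 and 8.20, 6.50 and 4.05 at ZT12 in ELAV neurons. In large PDF neurons it read 3.54, 2.81 and 3.04 at ZT0, 4.75 and 2.65 at ZT6, 5.82, 6.54 and 2.42 at ZT12, and 2.32 and 2.98 at ZT18. The kinds overlapped, because ELAV ZT12 replicate 3 was low and 2 of the large PDF ZT12 arrays were high. The difference was -2.76 ± 0.74 (adjusted p = 0.011), it stayed called in all 12 fits without 1 array, and with values under 5 raised to 5 it was -1.55, still called. Small PDF neurons read 6.71 and 4.75 at ZT0 and 6.44 and 4.81 at ZT12, so that replicate 1 was the higher at both times, and they were not called against ELAV (-1.11 ± 0.83, adjusted p = 0.356) or large PDF neurons (1.65 ± 0.83, adjusted p = 0.186). The order of the means was ELAV (6.79), small PDF (5.68) and large PDF (4.03), and neighbours in that order were not called.

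Shab, the delayed rectifier gene, lay near the background. Probe set 1638535_a_at read 5.24 and 3.83 at ZT0 and 5.79 and 5.39 at ZT12 in small PDF neurons, and stayed between 3.47 and 4.17 in large PDF neurons. The difference between them was 1.23 ± 0.35 (adjusted p = 0.0229), or at least 1.04-fold once large PDF values, all under 5, were set to 5. That call was lost without small PDF ZT0 replicate 1 (adjusted p = 0.142), without small PDF ZT12 replicate 1, with the replicate number as a block and with the floor. The other Shab probe set, 1633404_at, had 1 ELAV value (5.08) and 1 large PDF value (5.87) over 5 and was not called between cell kinds.

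Of calcium- and voltage-gated slo and the eag-type genes, Elk alone was called between cell kinds, lower in small than in large PDF neurons. The slo probe set 1637301_a_at ran from 5.92 to 6.93 in ELAV, 4.96 to 6.87 in large PDF and 5.46 to 6.15 in small PDF neurons. Its difference from ELAV was -0.62 ± 0.31 in large (adjusted p = 0.162) and -0.59 ± 0.35 in small PDF neurons (adjusted p = 0.228). The erg-type gene sei stood at 8.67 to 9.64 in ELAV, 8.03 to 9.21 in large PDF and 8.06 to 8.97 in small PDF neurons, and differed from ELAV by -0.42 (adjusted p = 0.153) and -0.57 (adjusted p = 0.0822). The founding gene eag never exceeded 5.26 on any array, and 21 of its 24 values were under 5. Elk read 4.39 to 5.03 in small PDF neurons against 5.22 to 7.16 in large PDF neurons at ZT0 and ZT12, lower by -1.14 ± 0.38 (adjusted p = 0.0444). Its arrays did not overlap at those times, as for 4.36% of all probe sets on that side. This call was lost in 9 of the 10 fits that left out an array (adjusted p = 0.141 without small PDF ZT12 replicate 2) and in all but 1 of the other settings.

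No potassium channel probe set was called for a change over the day in any cell kind. Between ZT12 and ZT0, limma called 0 of 16 in large PDF, small PDF, ELAV and per01 neurons, where 2.19%, 3.39%, 0.024% and 0.012% of all probe sets were called. At an unadjusted p under 0.05 the counts were 2, 2, 0 and 0, against 17.1%, 13.2%, 4.08% and 3.62% of all probe sets. Over the 4 times of large PDF neurons 0 were called against 2.02% of all, and 3 had an unadjusted p under 0.05 against 17.3% of all. Between ZT18 and ZT6 0 were called against 0.397%, and 3 had an unadjusted p under 0.05 against 8.91%. For slo the difference between ZT12 and ZT0 was 0.20 in large (95% interval -0.73 to 1.13) and 0.23 in small PDF neurons (95% interval -0.90 to 1.37), and a difference of 1, a doubling, lies inside both intervals.

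Between ZT12 and ZT0, SK had the lowest adjusted p of the 16 probe sets in small and in large PDF neurons, and it was not called. On 1627752_s_at both small PDF arrays of ZT12 (12.01, 12.76) lay above both of ZT0 (10.70, 11.11), while the 3 large PDF arrays of ZT12 (8.69, 9.30, 9.76) lay below the 3 of ZT0 (10.12, 10.28, 10.28). Of all probe sets, 18.4% had ZT12 arrays wholly above ZT0 arrays in small and 9.71% had them wholly below in large PDF neurons. The difference was 1.48 ± 0.48 in small PDF neurons (adjusted p = 0.12) and -0.98 ± 0.39 in large PDF neurons (adjusted p = 0.206), and neither was called. The difference between these changes was 2.46 ± 0.62 (adjusted p = 0.0897), where 0.697% of all probe sets were called. It was called with a variance trend (adjusted p = 0.0396) and with values under 5 raised to 5 (adjusted p = 0.0477), and in none of the other 6 planned settings or 10 fits without 1 array (adjusted p 0.0666 to 0.272). On the other SK probe sets the same difference was 0.87 ± 0.50 (1625065_s_at, adjusted p = 0.575) and 0.04 ± 1.08 (1635657_s_at, adjusted p = 0.996). On 1635657_s_at the difference between ZT12 and ZT0 was 0.59 in large and 0.63 in small PDF neurons, not called. In large PDF neurons 1627752_s_at read 9.03 and 9.43 at ZT6 and 10.99 and 9.55 at ZT18, and in per01 neurons 9.65 and 10.59 at ZT0 and 9.95 and 10.04 at ZT12.

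**Figure D3:**
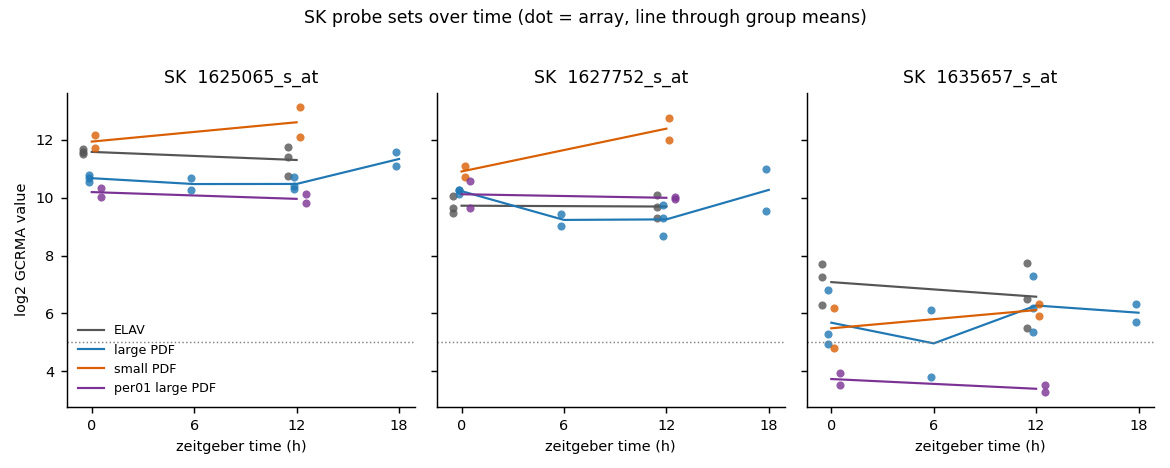
Deposited log2 value (y axis) of the 3 tested SK probe sets by zeitgeber time (x axis) in ELAV, large PDF, small PDF and per01 large PDF neurons. Dots are arrays, lines join group means and the dotted line marks log2 5. On 1627752_s_at small PDF arrays stand between 10.70 and 12.76 and are higher at ZT12, where large PDF arrays stand between 8.69 and 9.76.

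The per01 comparison depended on how arrays were scaled. On the deposited values 6 of 16 probe sets were lower in per01 than in wild-type large PDF neurons and 0 higher, but over all probe sets 31% were lower and 0.926% higher (32% in either direction), with a median difference of -0.69 for all and -0.61 for the 16. After all 24 arrays were quantile normalized to 1 distribution (requantiled), the median over all was 0.01 and 2 of 16 were called, both lower, where 7.06% of the probe sets passed (259 to the higher and 328 to the lower side). Genotype, sex and the separate distribution of these arrays cannot be told apart here.

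Shaw 1623070_a_at was lower under both scalings. It read 3.64 and 2.87 at ZT0 and 2.83 and 2.57 at ZT12 in per01 neurons, and 5.53, 5.36 and 5.86 at ZT0 and 5.90, 6.75 and 6.18 at ZT12 in wild type. No arrays overlapped, as for 24.4% of all probe sets on that side. The difference was -2.95 ± 0.38 on deposited values (adjusted p = 3.94e-05) and -1.89 ± 0.40 on requantiled values (adjusted p = 0.00769). With per01 values set to 5, wild type was at least 1.91-fold higher, and the call was lost with all values under 5 raised to 5 (adjusted p = 0.0705). The order of the 4 kinds on this probe set was ELAV, small PDF, large PDF and per01 large PDF neurons, and the small and large kinds were the neighbours not called.

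The other requantiled call was eag, which lay between 4.59 and 4.81 in wild type at ZT0 and ZT12 and between 2.78 and 2.86 in per01 neurons (-1.86 on deposited and -0.73 on requantiled values, adjusted p = 3.65e-06 and 0.0345). All these values lie under 5 and no fold is given. SK 1635657_s_at (3.28 to 3.94 in per01), Elk (2.84 to 4.26), Sh 1623917_a_at and Shab 1633404_at were lower on deposited values (differences of -2.41, -2.08, -0.66 and -1.66), and lost their calls when requantiled (-1.13, -0.88, -0.16 and -1.37, adjusted p from 0.155 to 0.693). The Shab values compared were all under 5, at most 4.84 in wild type. Its call was lost in 8 of 10 fits without 1 array, and that of Sh in 4. With values under 5 raised to 5 the calls of SK, Elk and Shab were lost as well. The bright SK probe sets were not called under either scaling, at -0.50 and 0.32 on deposited and -0.02 and 0.79 on requantiled values, with the sign of 1627752_s_at to the higher side in both. The difference between the daily changes of wild-type and per01 large PDF neurons was called for 0 of 16 (0 unadjusted), against 0.144% of all probe sets, or 12 (8.5% unadjusted). That 12 became 2 without large PDF ZT0 replicate 2 and 34 without large PDF ZT0 replicate 1, with 0 of 16 in both.

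**Figure D4:**
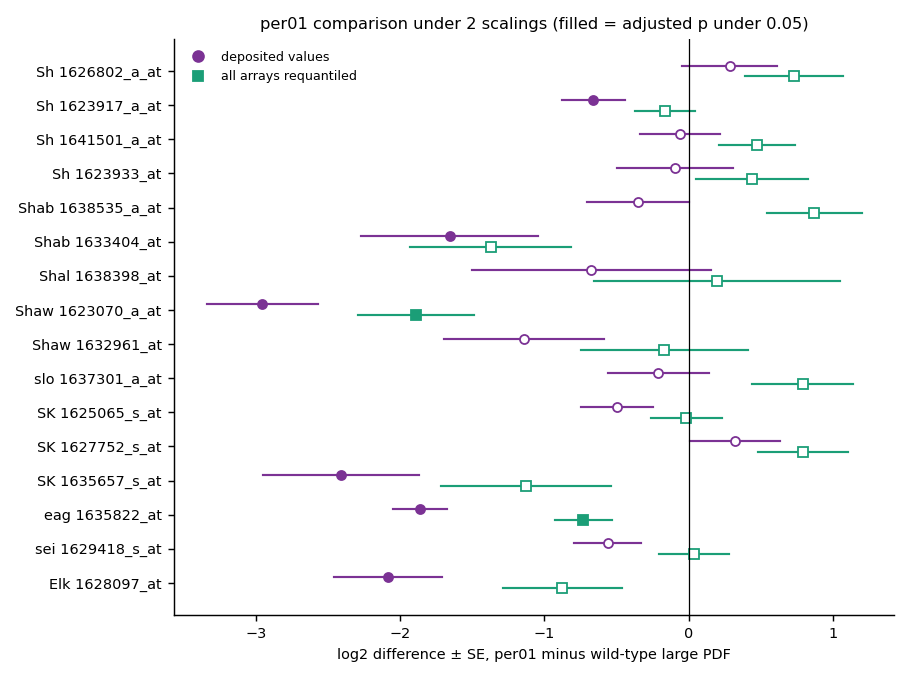
Log2 difference ± SE (x axis) between per01 and wild-type large PDF neurons for the 16 probe sets (y axis), from deposited values (circles) and after all arrays were quantile normalized together (squares). Filled symbols have an adjusted p under 0.05. Shaw 1623070_a_at and eag are filled under both, and the other squares are open.

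Some genes that act with these channels also differed between cell kinds. Of 16 other potassium channel and helper genes 9 passed the filter. Over all probe sets, 24.4% were called in large and 27.6% in small PDF neurons against ELAV, and 17.1% between the PDF kinds. In large PDF neurons 2 were lower than in ELAV neurons, qvr (-1.26 ± 0.24, adjusted p = 0.000809), which encodes the Sh regulator also called sleepless, and the slo-binding protein gene Slip1 (-0.89 ± 0.26, adjusted p = 0.0191). In the same neurons 2 were higher, the inward rectifier gene Irk1 (3.00 ± 0.49) and the 2-pore channel gene sand (2.41 ± 0.53, adjusted p = 0.00273). In small PDF neurons Hk, the Sh beta subunit gene (-1.55 ± 0.24, adjusted p = 0.000106), qvr (-1.75 ± 0.27) and the sodium-activated channel gene SLO2 (-1.36 ± 0.33) were lower and Irk1 was higher (4.54 ± 0.55). Hk was also lower in small than in large PDF neurons (-0.96 ± 0.24, adjusted p = 0.0105, not called without the 3 arrays with Gad1 or Gs2), as was sand (-1.85 ± 0.60, adjusted p = 0.04, lost in 7 of those 10 fits that left out an array). Slip1 lost its call in 2 of 12 such fits, and sand (large PDF) and SLO2 lost theirs with values under 5 raised to 5. The medians of the 9 genes were -0.59, -0.43 and -0.49 in the 3 comparisons. Irk1 alone of the 9 was called over the day, higher at ZT12 than at ZT0 by 5.53 ± 0.69 in large and 5.01 ± 0.85 in small PDF neurons. Between these times 2.19% and 3.39% of all probe sets were called. Both Irk1 calls were lost with only the groups of each comparison in the fit (adjusted p = 0.143 and 0.13). In per01 neurons 6 of the 9 were lower on deposited values, where 31% of all probe sets were lower. Of these 6, SLO2 alone was called when requantiled, where 7.06% of all probe sets were called.

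Of 15 genes of sodium, calcium and cation channels and their helpers 14 passed. Over all probe sets, 24.4% were called in large and 27.6% in small PDF neurons against ELAV. In large PDF neurons para, the sodium channel gene (-1.39 ± 0.26), Ih, which encodes the hyperpolarization-activated channel (-1.57 ± 0.26), and unc79 (-1.23 ± 0.24), of the sodium leak channel complex, were lower than in ELAV neurons, and the para helper gene Teh2 was higher (1.26 ± 0.31). In small PDF neurons para (-1.11), Ih (-0.84), unc79 (-0.94) and the T-type calcium channel gene Ca-alpha1T (-1.32) were lower and Teh4 was higher (1.83). Of these 5 calls, Ih was lost in 7 of the 10 fits that left out an array, para in 1 and each other gene in 2. Between the PDF kinds 0 of the 14 were called, against 17.1% of all probe sets. Over the 4 times Teh2 was called (adjusted p = 0.0456, lost in 8 of 10 such fits), where 2.02% of all probe sets were called. In per01 neurons 6 were lower on deposited values, where 31% of all probe sets were lower. When requantiled 1 was higher and 2 were lower, where 7.06% of all probe sets were called. The medians of the 14 were -0.42, 0.07 and 0.42 in the 3 comparisons.

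As a description over the 10 group means, the probe sets with the pattern most like Shaw 1623070_a_at were CG43740 (Pearson's r = 0.972), Fitm (0.972) and the monoamine transporter gene Vmat (0.971). For Sh 1641501_a_at they were yuri (0.973), dan (0.966) and shi (0.964), and for Sh 1623917_a_at shop (0.976), cpx (0.972) and pdm3 (0.931). For Shal they were Ufd4 (0.955), tok (0.949) and Klp98A (0.948). For SK 1625065_s_at they were CG42342 (0.97), crb (0.966) and CG32982 (0.941), and for SK 1627752_s_at DIP-beta (0.914), CG33978 (0.904) and the PDF receptor gene Pdfr (0.904). For the dimmer probe sets they were CG9338, NLaz and tef (Shab 1638535_a_at, 0.956 to 0.958), eIF6, Pdcd4 and pHCl-1 (Shaw 1632961_at, 0.952 to 0.959) and tau, Pino and Mgat2 (Elk, 0.958 to 0.97). The 10 means share arrays, normalization and the separate per01 distribution.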

How the data were processed

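RNA of hand-sorted neurons (0.1 to 0.4 ng) was amplified in 2 T7 rounds and hybridised to 24 arrays, per the labels' protocols. The deposited values are on the log2 scale, and the submitters' processing notes name GCRMA and R 2.6. The set of arrays that GCRMA normalized jointly is unstated. From the table's 18952 probe sets 183 controls were removed. Symbols came from the platform annotation (13647 probe sets with 1 symbol, 402 with several, 4720 with none). Probe sets with log2 of at least 5 on at least 2 arrays were fitted with limma 3.58.1 (R 4.3.3), with 1 mean for each of 10 groups (14 residual and 3.62 prior degrees of freedom) and Benjamini-Hochberg adjustment within each contrast. The fit was tested on simulated data. Replicates are biological per the labels. The members, lists and tests were chosen with earlier results of these data known. For each gene of the other lists the probe set of highest mean was used. All member probe sets are described. Called list genes and the 3 most similar patterns are named. No sequences or genome coordinates were used. Alternatives were no filter, a filter at log2 7, a floor at log2 5, quantile normalization of all arrays, only the contrast's groups, array weights, robust moderation with a trend in the variance, a replicate block, leaving out each array and, added after seeing the data, leaving out 3 arrays with Gad1 or Gs2.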

Additional observations from a re-analysis of the deposited data

How the results depend on the processing

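Over 8 planned settings and the fits without 1 array, no called potassium channel difference changed sign. Counts of called probe sets moved by more than 1.5-fold in 3 comparisons. Between small and large PDF neurons 5 became 3 with the filter at log2 7 and without the 3 arrays with Gad1 or Gs2, and ranged from 3 to 5 without 1 array. Between per01 and wild type 6 became 3 with the filter at log2 7, 1 with the floor at log2 5 and 2 when requantiled, and the fits without 1 array gave 4 to 6. For the difference in daily change between small and large PDF neurons 0 became 1 (SK) with the floor and with the variance trend. Large PDF against ELAV gave 4 to 6 and small PDF against ELAV 4 to 6. With no filter Sh 1632879_at, which is under 5 on every array, was also called lower in per01 neurons. Over all probe sets, with only the groups of a comparison in the fit, the calls went from 1423 to 802 between small and large PDF neurons, from 182 (large) and 282 (small) to 0 between ZT12 and ZT0, from 168 to 26 over 4 times, from 33 to 0 between ZT18 and ZT6 from 58 to 5 for the difference in daily change between small and large PDF neurons, and from 12 to 0 for that between wild type and per01, where the fits without 1 array gave 2 to 34 and other settings up to 23. The few calls between ZT12 and ZT0 in ELAV (2) and per01 neurons (1) ranged from 0 to 7 and from 0 to 4. Other settings gave up to 334 over 4 times, 106 between ZT18 and ZT6, 288 for ZT12 against ZT0 in large PDF neurons, 110 for the difference in daily change, and 587 to 6603 against 2659 for per01. The replicate block gave 5, 5, 4 and 6 called potassium channel probe sets in the 3 cell kind and the per01 comparisons and ended 1 call (Shab). Deviations of same-numbered arrays correlated at -0.158 to 0.139. Of 21 group pairs 2 had all above 0.1, and of the 6 pairs with 3 numbers 0 did. With 2 or 3 arrays per group, these values cannot settle whether the numbers pair the arrays. The main fits treated the arrays as unpaired. The 7 permutation calls between probe sets kept their sign and calls when requantiled and with the floor, the other settings tried for them, and kept their sign but lost their calls in 10 of 10 or 10 of 12 fits without 1 array, where fewer arrays raise the smallest possible p.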
